A study of Mus musculus with 18 samples.

Results

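The 10 genes described here encode the dimer partners and inhibitors of the MyoD family of muscle transcription factors: the inhibitor-of-DNA-binding genes Id1, Id2, Id3 and Id4, the E protein genes Tcf3, Tcf4 and Tcf12, and the inhibitor genes Twist1, Twist2 and Msc. They were chosen by name from the 35275 genes of a poly(A) RNA-seq table of the mouse myoblast line C2C12. The study compared wild-type control cells with cells overexpressing the noncoding RNA MUNC, whose locus lies upstream of the Myod1 gene, in a spliced form (the spliced line) or a genomic form (the genomic line). Each line was sampled in growth medium (GM, 20% fetal bovine serum, at about 80% confluency) and after 3 days in 2% horse serum (DM3), with 3 biological replicates, which makes 18 libraries in 6 groups. All lines came from a C2C12 stock labelled negative for PAX7, the transcription factor of muscle stem cells, and Pax7 had at most 8 reads in any library. Whether each overexpressing line is 1 clone or a pool is not given in the sources used here, and the MUNC RNA itself was not analysed here, so the overexpression was not checked. DM3 and GM differ in serum, time and cell density as well as in differentiation, and these cannot be told apart. Because the labels do not say what separates the biological replicates, p-values measure the spread between these libraries.

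Values are FPM, the reads of a gene divided by a library size factor. Library depth ran from 38416702 to 68788327 gene reads, and 3 reads corresponded to 0.0429 to 0.0757 FPM. In bulk RNA, fewer cells expressing a gene and less RNA per cell cannot be told apart. The 9 myotube markers summed to between 12.1 and 31.7 FPM in control GM and to between 8.41 and 13.7 FPM in control DM3, so the control libraries labelled as differentiated did not carry more myotube RNA by this measure. The same markers summed to between 163 and 890 FPM in spliced DM3 and to between 57.2 and 105 FPM in genomic DM3. Of the 8 cell cycle genes listed, 8 fell between GM and DM3 in each of the 3 lines (limma, adjusted p under 0.05). Spliced DM3 replicate 1 stood apart from the other spliced DM3 libraries, with the 890 FPM of myotube markers and with 1121 FPM of cell cycle genes, against a lowest sum of 285 FPM in its group.

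Class I basic helix-loop-helix factors, the E proteins, are broadly expressed and pair with tissue-restricted class II factors such as MyoD and Myogenin to bind the E-box motif CANNTG in muscle genes. Id proteins have the helix-loop-helix but no basic region, so a dimer with an Id protein does not bind DNA, and Id proteins are known to hold myoblasts in the undifferentiated state by taking up E proteins. Twist proteins and Musculin, the product of Msc, are themselves basic helix-loop-helix proteins that repress myogenic factors or compete for E proteins. Id genes are known targets of BMP signalling through Smad proteins.

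Promoter windows from RefSeq were matched for 7 of the 10 genes on GRCm38.p6, and those of Id2 and Twist2 are shown because the comparisons between lines and media turn on these genes. Each window holds the 250 bases before the RefSeq start, read 5′ to 3′ on the gene's strand, with bases that GENCODE places in a 5′ UTR left out. Capitals mark the E-box motif CANNTG and the Smad-associated motif GGCGCC, which are both palindromic and so cover both strands.
Id2 (chr12:25096254-25096342, minus strand): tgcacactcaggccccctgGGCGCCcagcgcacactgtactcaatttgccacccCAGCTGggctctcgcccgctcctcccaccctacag
Twist2 (chr1:91801211-91801460, plus strand): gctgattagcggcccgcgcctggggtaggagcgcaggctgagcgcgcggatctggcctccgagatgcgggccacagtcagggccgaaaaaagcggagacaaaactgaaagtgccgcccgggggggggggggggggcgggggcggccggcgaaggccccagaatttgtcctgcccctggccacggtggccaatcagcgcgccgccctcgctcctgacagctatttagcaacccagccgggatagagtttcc
The Id2 window held 1 E-box, CAGCTG, which begins 196 bases before the RefSeq start, and 1 GGCGCC. This window (chr12:25096093-25096342) lies inside the Id2 gene as GENCODE places it (25093799-25097140), downstream of its 5′ end, and 89 of its 250 bases are printed. Neither motif was found in the 250 bases before Twist2 or in those before Id3, whose window lies in an annotated 5′ UTR and is not printed. Over 32851 promoter windows of 250 bases, 66.2% held CANNTG, 13.0% held CAGCTG and 9.59% held GGCGCC. These matches describe the letters only, and no binding was measured here.

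Id2 and Id3 RNA was higher in the spliced line than in control cells in both media, and Id3 and Id1 RNA was higher in the genomic line than in control cells in DM3. Id2 in genomic DM3 was also above every control DM3 library, with a ratio of 3.52, but did not pass in limma (adjusted p = 0.0691). It passed with the replicate number as a block (limma, adjusted p = 0.0343) and in edgeR (adjusted p = 0.0244). Between GM and DM3 in control cells, whose myotube marker sum was not higher in DM3, Id2, Id3 and Twist2 fell, while the E protein genes Tcf4 and Tcf12 rose. The rise of Tcf4 and Tcf12 was also seen in both overexpressing lines, whereas the change of Id2 between the media differed between the spliced line and control cells. Differences were tested with limma on log2(FPM + 1) over the 13869 genes that reached 0.5 FPM in at least 3 libraries, with Benjamini-Hochberg adjustment over all of them and a threshold of 0.05. Of the 10 members, 7 passed this filter, and Id4, Twist1 and Msc did not. The added 1 makes limma's fold changes too small for genes at low FPM.

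Id2 lies on chromosome 12 (25093799-25097140, minus strand, GRCm38) and encodes an Id protein that binds E proteins. In control GM its 3 libraries held 16.8, 5.82 and 16.2 FPM, and in control DM3 they held 1.36, 0.89 and 0.87 FPM, which rest on 45 to 71 reads per library. Every control library in DM3 was below every control library in GM, and Id2 fell by 2.66 ± 0.50 on the log2 scale (SE; limma, adjusted p = 0.000303), to 0.0802 of its GM mean. In the spliced line Id2 stood at 61.5, 22.2 and 41.6 FPM in GM and at 37.5, 35.6 and 22.1 FPM in DM3. These ranges overlapped, and the log2 difference between the media was -0.31 (limma, adjusted p = 0.671). In the genomic line Id2 stood at 13.5, 5.77 and 38.9 FPM in GM and at 4.0, 3.42 and 3.55 FPM in DM3. The genomic DM3 libraries were all below the genomic GM libraries, with a log2 change of -1.76 ± 0.50 (limma, adjusted p = 0.00805). Without genomic GM replicate 3, the highest of that group, the change was -1.09 and did not pass (limma, adjusted p = 0.0549).

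In GM, Id2 averaged 41.8 ± 19.7 FPM (SD, n = 3) in the spliced line and 12.9 ± 6.18 FPM in control cells, a ratio of 3.23. All 3 spliced libraries were above all control libraries, and the log2 difference was 1.63 ± 0.50 (limma, adjusted p = 0.0195). This call was lost without control GM replicate 2 (1.17, limma adjusted p = 0.0965) and without spliced GM replicate 1 (1.30, adjusted p = 0.0872). The genomic line averaged 19.4 ± 17.3 FPM in GM and overlapped the control libraries (log2 difference 0.30, limma, adjusted p = 0.721). In DM3, Id2 averaged 31.8 ± 8.41 FPM in the spliced line against 1.04 ± 0.281 FPM in control cells, a ratio of 30.6, with a log2 difference of 3.98 ± 0.50 (limma, adjusted p = 1.08e-05). Genomic DM3 libraries averaged 3.66 ± 0.303 FPM, also above every control DM3 library with a ratio of 3.52, but the log2 difference of 1.20 did not pass (limma, adjusted p = 0.0691). With the replicate number as a block it passed (limma, adjusted p = 0.0343), and so it did in edgeR on the recovered reads (adjusted p = 0.0244). Without spliced DM3 replicate 1 the difference between spliced and control DM3 was 3.84 (limma, adjusted p = 7.92e-05). Between the overexpressing lines, Id2 was 8.69 times as high in spliced as in genomic DM3, with no overlap (log2 difference 2.78 ± 0.50, limma, adjusted p = 0.000284). In GM the same log2 difference was 1.33 with overlapping libraries (limma, adjusted p = 0.0502; with the replicate block, 0.0229), and it was 2.00 without genomic GM replicate 3 (adjusted p = 0.00269).

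Id3, on chromosome 4 (136143497-136145755, plus strand, GRCm38), encodes another E protein inhibitor. The control libraries held 36.0, 16.5 and 44.2 FPM of Id3 in GM and 21.3, 11.6 and 10.5 FPM in DM3. These ranges overlapped at control GM replicate 2, and the log2 change of -1.06 ± 0.43 was close to the threshold (limma, adjusted p = 0.0441). Leaving out control GM replicate 1 or 3, or control DM3 replicate 2 or 3, ended this call, with adjusted p between 0.122 and 0.176 in limma. The spliced libraries held 114, 60.7 and 116 FPM in GM and 150, 163 and 115 FPM in DM3, with no call between the media (log2 difference 0.60, limma, adjusted p = 0.291). The genomic libraries held 47.4, 38.0 and 111 FPM in GM and 79.0, 35.0 and 38.2 FPM in DM3, again with no call (log2 difference -0.30, limma, adjusted p = 0.586).

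Set against control cells, Id3 in the spliced line was 3.01 times as high in GM, with no overlap (log2 difference 1.61 ± 0.43, limma, adjusted p = 0.00837). In DM3 it was 9.87 times as high, at 143 ± 25.1 FPM against 14.5 ± 5.92 FPM (SD, n = 3), also with no overlap (log2 difference 3.27 ± 0.43, limma, adjusted p = 1.55e-05). Without spliced DM3 replicate 1 the difference in DM3 was 3.22 (limma, adjusted p = 9.85e-05). The genomic line averaged 65.5 ± 39.8 FPM in GM and overlapped control cells (log2 difference 0.95, limma, adjusted p = 0.114). Genomic DM3 libraries averaged 50.7 ± 24.6 FPM, 3.51 times the control DM3 mean and above every control DM3 library (log2 difference 1.71 ± 0.43, limma, adjusted p = 0.00451). Spliced DM3 exceeded genomic DM3 by 2.82 times with no overlap (log2 difference 1.56 ± 0.43, limma, adjusted p = 0.00746), whereas in GM the overexpressing lines overlapped (0.66, adjusted p = 0.251).

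Id1, on chromosome 2 (152736251-152737410, plus strand, GRCm38), encodes the Id protein best known as a BMP-responsive inhibitor of MyoD. Its control libraries held 22.8, 10.3 and 31.4 FPM in GM and 15.3, 8.94 and 8.56 FPM in DM3, with overlap and no call (log2 difference -0.83, limma, adjusted p = 0.180). Spliced libraries held 53.9, 16.9 and 48.9 FPM in GM and 39.3, 35.6 and 15.0 FPM in DM3. Genomic libraries held 15.0, 11.6 and 37.8 FPM in GM and 48.2, 25.8 and 24.2 FPM in DM3. No difference between the media passed in either line (log2 differences -0.35 and 0.70, each ± 0.52, limma, adjusted p = 0.627 and 0.274). In DM3 all genomic libraries were above all control libraries, at 2.99 times the control mean (log2 difference 1.47 ± 0.52, limma, adjusted p = 0.0313). That call was lost without control DM3 replicate 2 (1.36, adjusted p = 0.0926) or 3 (1.34, 0.096), or genomic DM3 replicate 1 (1.17, 0.131), in limma. Spliced DM3 overlapped control DM3 at its replicate 3, with a log2 difference of 1.31 ± 0.52 that did not pass (limma, adjusted p = 0.0502; with the replicate block, 0.0266). It passed without spliced DM3 replicate 3 (1.73, limma, adjusted p = 0.0196) and without control DM3 replicate 1 (1.56, adjusted p = 0.0419). In GM Id1 had no call against control cells in the spliced line (0.83, limma, adjusted p = 0.225) or the genomic line (-0.05, adjusted p = 0.961). With a block of the replicate number fitted within GM, chosen after seeing the data, the spliced-line difference passed (limma, adjusted p = 0.0109).

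Id4, on chromosome 13, had at most 4 reads in any library and 8 reads over the 18 libraries, so its level was near or below what 3 reads give.

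The levels by library show the Id genes and their partners side by side.

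**Figure D1:**
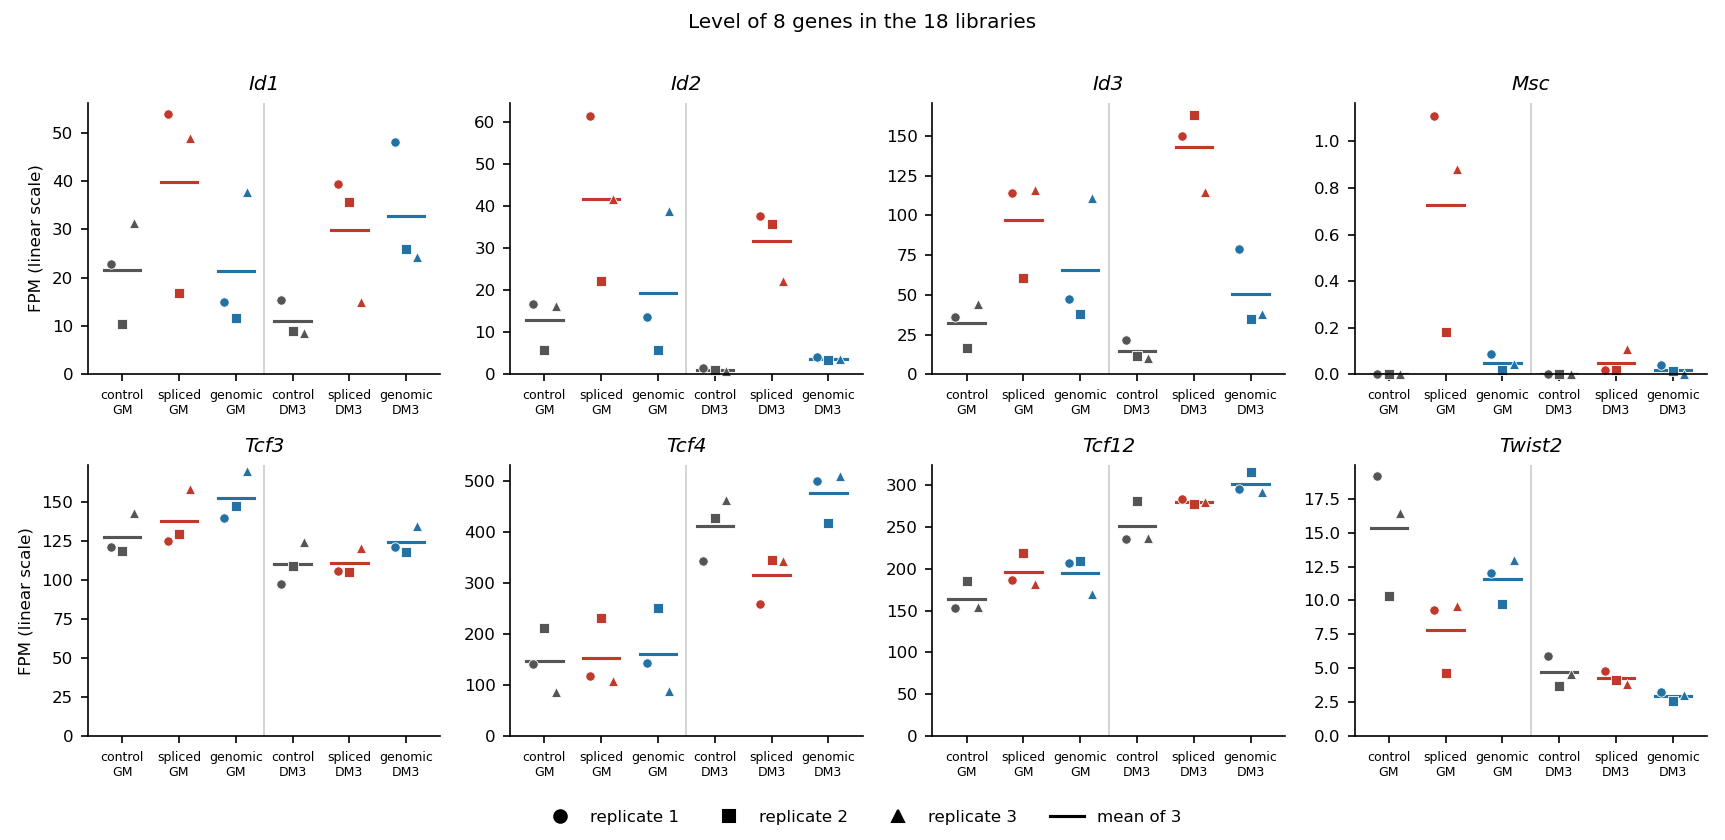
FPM (vertical axis, linear, starting at 0) of Id1, Id2, Id3, Msc, Tcf3, Tcf4, Tcf12 and Twist2 in the 6 groups (horizontal axis); circles, squares and triangles are replicates 1, 2 and 3 and the line is the mean of the 3. Spliced DM3 stands apart for Id3, with 115 to 163 FPM against 10.5 to 21.3 FPM in control DM3, while Tcf4 and Tcf12 are higher in DM3 than in GM in all 3 lines.

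Ordered by group mean, Id3 ran from spliced DM3 down through spliced GM, genomic GM, genomic DM3 and control GM to control DM3, and each group overlapped its neighbour in that order. The order for Id2 was spliced GM, spliced DM3, genomic GM, control GM, genomic DM3 and control DM3. Control GM and genomic DM3, and genomic DM3 and control DM3, did not overlap for Id2, and its other neighbours did. For Id1 the order was spliced GM, genomic DM3, spliced DM3, control GM, genomic GM and control DM3, with overlap at every step. On FPM per kilobase of transcript, the scale on which genes can be compared, the mean level of Id3 was the highest of the tested Id genes in each of the 6 groups, from 11.3 in control DM3 to 112 in spliced DM3. Per kilobase of all annotated exons, Id1 had the higher mean share of the Id sum in control GM (44.0% against 43.4% for Id3), control DM3 (52.9% against 44.7%) and genomic DM3 (49.0% against 48.2%), so this order depends on the length. On the scale of 1 transcript Id2 ranged from 1.08 in control DM3 to 43.6 in spliced GM, and Id1 from 9.44 in control DM3 to 34.4 in spliced GM.

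Whether the response to differentiation medium itself differed between lines was tested as an interaction, the log2 change in an overexpressing line minus that in control cells. For the spliced line, Id2 had an interaction of 2.35 ± 0.71 (SE; limma, adjusted p = 0.0377), so its log2 change between the media was less negative than in control cells, and it was the only member of the 7 tested that passed, where 14.4% of all tested genes did. Leaving out 1 library at a time ended this call in 8 of 12 cases, with values between 1.97 and 2.41 and adjusted p between 0.0519 and 0.101 in limma. Id3 had an interaction of 1.66 ± 0.61 that did not pass (limma, adjusted p = 0.0764) and passed without control GM replicate 2 (2.07, adjusted p = 0.0289) or control DM3 replicate 1 (1.95, adjusted p = 0.0432). That of Twist2 was 0.79 and did not pass (limma, adjusted p = 0.123), but passed without control GM replicate 2 (1.04, adjusted p = 0.0415). In all, 3 members had an unadjusted p under 0.05 in limma for this interaction. For the genomic line the interactions were 1.53 for Id1, 0.90 for Id2 and 0.76 for Id3, and 0 of the 7 tested members passed, where 8.81% of all tested genes did (limma, adjusted p = 0.230, 0.504 and 0.509 for the Id genes).

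Tcf4, on chromosome 18, encodes the E protein E2-2, a dimer partner of MyoD and Myogenin. Its control libraries held 142, 212 and 85.8 FPM in GM and 343, 428 and 462 FPM in DM3. Every DM3 library was above every GM library, at 2.80 times the GM mean (log2 change 1.56 ± 0.35, limma, adjusted p = 0.00126). In the spliced line it stood at 118, 232 and 107 FPM in GM and at 260, 344 and 343 FPM in DM3 (log2 change 1.12 ± 0.35, limma, adjusted p = 0.0212). In the genomic line it stood at 143, 252 and 89.7 FPM in GM and at 500, 419 and 510 FPM in DM3 (log2 change 1.67 ± 0.35, limma, adjusted p = 0.000911). The media did not overlap in any line, but the spliced-line call was lost in 4 of its leave-one-out fits, those without spliced GM replicate 1 or 3 or spliced DM3 replicate 2 or 3, with adjusted p between 0.067 and 0.102 in limma. Tcf4 had no call between lines in the main test: the log2 difference from control cells was 0.06 in GM and -0.38 in DM3 for the spliced line (limma, adjusted p = 0.911 and 0.405), and 0.10 and 0.22 for the genomic line (adjusted p = 0.875 and 0.662). All spliced DM3 libraries were nonetheless below all genomic DM3 libraries (log2 difference -0.60, limma, adjusted p = 0.182). With the replicate block fitted within DM3, chosen after seeing the data, the spliced line passed against control cells (limma, adjusted p = 0.0293) and the genomic line (0.00404).

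Tcf12, on chromosome 9 (71842688-72111871, minus strand, GRCm38), encodes the E protein HEB. Control libraries held 153, 185 and 154 FPM in GM and 235, 281 and 237 FPM in DM3, with no overlap and a rise of 1.53 times (log2 change 0.61 ± 0.11, limma, adjusted p = 0.000191). The rise was 0.52 in the spliced line (limma, adjusted p = 0.00193), from 196 ± 20.3 to 280 ± 3.31 FPM (SD, n = 3), and 0.63 in the genomic line (adjusted p = 0.000197), from 195 ± 22.2 to 301 ± 13.1 FPM, with no overlap in either. In GM the log2 difference from control cells was 0.25 for the spliced line (limma, adjusted p = 0.0828; with the replicate block, 0.0154) and 0.25 for the genomic line (adjusted p = 0.111; with the block, 0.0222). In DM3 it was 0.16 for the spliced line (limma, adjusted p = 0.255) and 0.26 for the genomic line, whose libraries were all above control DM3 (adjusted p = 0.0672; with the block, 0.0114). The Tcf12 call against control cells in GM was gained without control GM replicate 2 for the spliced line (limma, adjusted p = 0.0344) and the genomic line (adjusted p = 0.0461). For the genomic line it was also gained without genomic GM replicate 3 (adjusted p = 0.0338), and in DM3 without control DM3 replicate 2 (adjusted p = 0.0364).

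Tcf3, on chromosome 10 (80409514-80433647, minus strand, GRCm38), encodes the E proteins E12 and E47. Its level varied little over the study, from 97.6 FPM in control DM3 replicate 1 to 170 FPM in genomic GM replicate 3. Group means ran from 110 ± 13.4 FPM in control DM3 and 111 ± 8.69 FPM in spliced DM3 to 153 ± 15.7 FPM in genomic GM. In control cells the log2 difference of DM3 from GM was -0.21, with overlap (limma, adjusted p = 0.142; with the replicate block, 0.00589). In the spliced and genomic lines all DM3 libraries were below all GM libraries, with log2 differences of -0.31 and -0.29 that did not pass (limma, adjusted p = 0.0568 and 0.0530). With the replicate block, whose numbers were not taken to pair the media in these lines, both passed (limma, adjusted p = 0.000876 and 0.000737). For the genomic line against control cells the values were 0.26 in GM (limma, adjusted p = 0.126; with the block, 0.00349) and 0.18 in DM3 (adjusted p = 0.255; with the block, 0.0209). For the spliced line against control cells they were 0.11 in GM and 0.01 in DM3 (limma, adjusted p = 0.520 and 0.951), and against the genomic line in GM -0.15 (adjusted p = 0.348; with the block, 0.0478).

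The changes of the 7 tested genes are plotted with their standard errors by comparison.

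**Figure D2:**
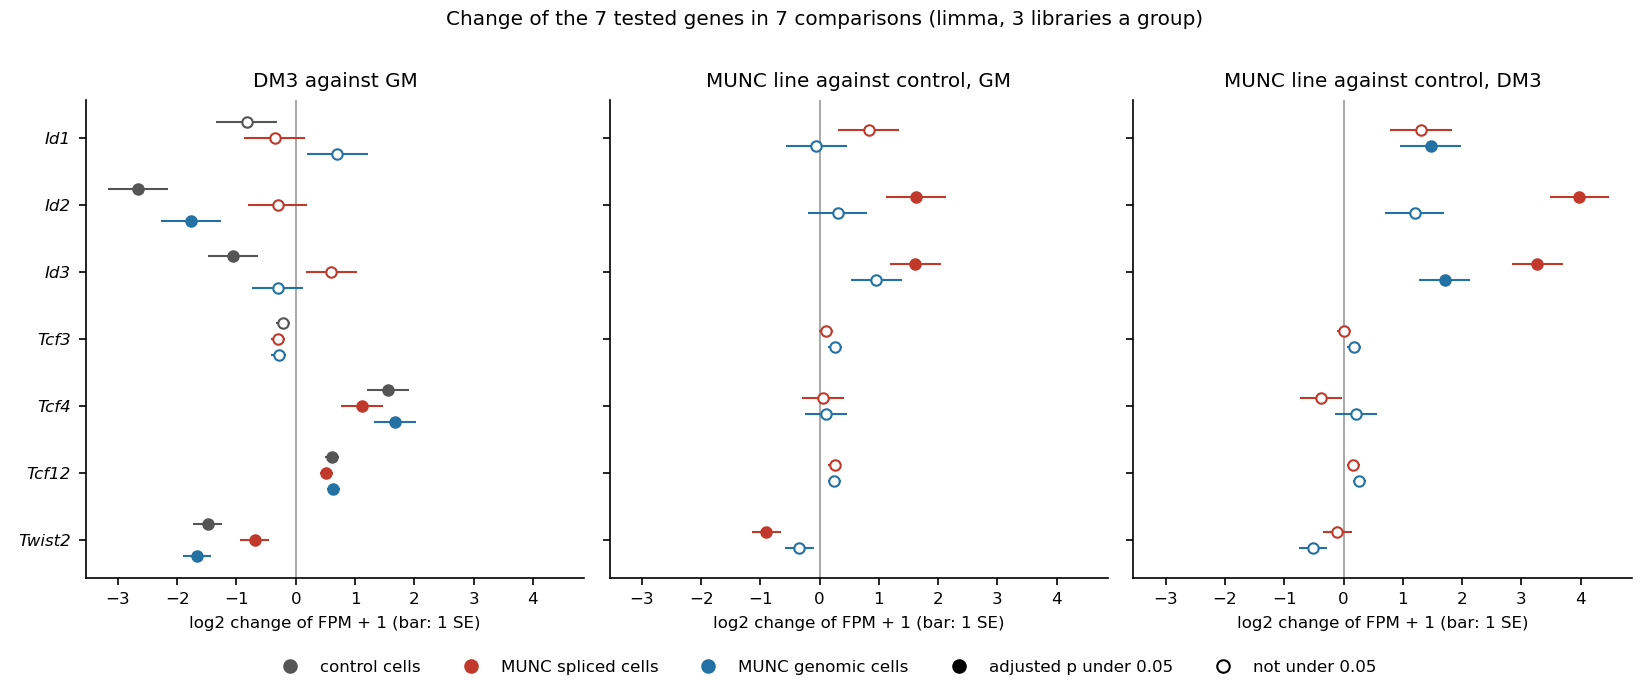
Log2 change (horizontal axis, log2(FPM + 1) scale) of the 7 tested genes (vertical axis) in 7 comparisons, in 3 panels. Bars are ±1 SE from limma and filled points passed an adjusted p of 0.05. Id2 and Id3 stand at 3.98 and 3.27 for spliced against control DM3, and the Tcf4 and Tcf12 points for DM3 against GM are filled in all 3 lines.

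Twist2, on chromosome 1 (91801461-91848028, plus strand, GRCm38), encodes a basic helix-loop-helix repressor of myogenic factors. Control libraries held 19.2, 10.3 and 16.4 FPM in GM and 5.93, 3.67 and 4.57 FPM in DM3, with no overlap, and the DM3 mean was 0.309 of the GM mean (log2 change -1.49 ± 0.24, limma, adjusted p = 6.85e-05). The genomic line held 12.1, 9.72 and 13.0 FPM in GM and 3.24, 2.62 and 3.02 FPM in DM3, also with no overlap (log2 change -1.66 ± 0.24, limma, adjusted p = 3.45e-05). The spliced line held 9.26, 4.67 and 9.58 FPM in GM and 4.84, 4.13 and 3.85 FPM in DM3, which overlapped at spliced GM replicate 2 (log2 change -0.69 ± 0.24, limma, adjusted p = 0.0334). That call was lost in 4 fits with 1 library left out, with adjusted p between 0.0829 and 0.151 in limma: those without spliced GM replicate 1 or 3 or spliced DM3 replicate 2 or 3.

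In GM every spliced library was below every control library for Twist2, at 0.512 of the control mean (log2 difference -0.90 ± 0.24, limma, adjusted p = 0.00853). Without spliced GM replicate 2 the difference was -0.60 and did not pass (adjusted p = 0.0543). The genomic line overlapped control cells in GM (log2 difference -0.34, limma, adjusted p = 0.330). In DM3 its libraries were all below control DM3 (log2 difference -0.51, limma, adjusted p = 0.0989; with the replicate block, 0.0156). Spliced and control DM3 overlapped (log2 difference -0.10, limma, adjusted p = 0.757). In GM the spliced libraries were all below the genomic libraries (log2 difference -0.56, limma, adjusted p = 0.0813; with the block, 0.0112). In DM3 they were all above them (0.41, adjusted p = 0.178). The antisense gene Gm29100 covers 46.5% of the exon bases of Twist2, and the strand setting of the counting is not given in the sources used here. Gm29100 held 110 to 195 reads in control GM and 93 to 131 in control DM3, against 584 to 1122 and 186 to 309 reads of Twist2, and reads of the pair cannot be told apart if strand was ignored.

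Msc, on chromosome 1 (14753346-14755992, minus strand, GRCm38), encodes Musculin, also called MyoR, a repressor that competes with MyoD. It was listed at 0 in all 6 control libraries, and 123 reads in 11 libraries were assigned to it in the whole study. Spliced GM libraries held 1.11, 0.18 and 0.88 FPM, from 10 to 49 reads, genomic GM libraries held 1 to 6 reads, spliced DM3 libraries held 1 to 6 reads, and genomic DM3 libraries held 0 to 2 reads. With 3 reads per library as the floor, the mean of Msc was at least 14-fold higher in spliced GM than in control GM, and its lowest spliced GM library was at least 3.45-fold higher. It was outside the filter of the main test. In edgeR on the recovered reads with no filter, an alternative chosen after seeing the data, the Msc difference between spliced and control GM passed (adjusted p = 0.000142), where 18.6% of 24893 genes were called in either direction. So did the difference between spliced and genomic GM (log2 3.76, edgeR adjusted p = 0.00344; 19.4% called) and the fall of Msc from spliced GM to spliced DM3 (log2 change -3.80, edgeR adjusted p = 0.00412; 17% called). The antisense gene Gm9947 overlaps 21.2% of the exon bases of Msc and held 5, 1 and 6 reads in the spliced GM libraries. Twist1, which encodes the close relative of Twist2, was listed at 0 in all 18 libraries, as were 10382 of the 35275 genes.

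Counted by comparison, 5 of the 7 tested members were called between control DM3 and control GM (2 higher, 3 lower), where 58.2% of all 13869 tested genes were called. In the spliced line 3 of 7 were called between the media (2 higher, 1 lower; 35.6% of all genes), and in the genomic line 4 of 7 (2 higher, 2 lower; 51.4%). Against control cells in GM, 3 of 7 were called for the spliced line (2 higher, 1 lower; 35.5%) and 0 of 7 for the genomic line (26.8%). For that count of 0 in limma, edgeR called 0 members (28.2% of all genes), DESeq2 called Id3 (adjusted p = 0.0454; 31.4%) and limma with the replicate block called Tcf3 and Tcf12 (37.4%), and 3 members had an unadjusted p under 0.05. Against control cells in DM3, 2 of 7 were called for the spliced line (Id2 and Id3; 43.3%) and 2 of 7 for the genomic line (Id1 and Id3; 40.3%), all of them higher. With the replicate block the count for the genomic line was 6 of 7, where 50.5% of all genes were called.

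Between spliced and genomic libraries in DM3, 2 of 7 were called (Id2 and Id3; 44.2%). In GM limma called 0 of 7 (35.8%), edgeR 0 (36.7%), DESeq2 0 (39.9%) and limma with the replicate block 3 (47%), and Id2 and Twist2 had an unadjusted p under 0.05. The interactions called 1 of 7 for the spliced line and 0 of 7 for the genomic line, the latter with 0 calls in edgeR (5.6%) and in DESeq2 (9.19%) and 0 members at an unadjusted p under 0.05. Groups did not overlap for 4 of 7 members between control DM3 and GM, where they did not for 62.4% of all tested genes, for 3 in the spliced line (44.6%) and for 5 in the genomic line (62.8%). Against control cells the counts were 3 (43.6%) and 0 (37.9%) in GM and 2 (53%) and 5 (56.9%) in DM3 for the spliced and genomic lines, and between the overexpressing lines 1 in GM (45.7%) and 5 in DM3 (57.2%). No comparison gave a count of members far above the share over all genes. The median log2 change of the members was -0.83 for control DM3 against GM and 0.26 for genomic against control DM3, beside medians of 0.02 and -0.01 over all tested genes. The comparisons with control cells share the control libraries.

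The summed level of the 4 Id genes was set against that of the 3 E protein genes in each library, as FPM per kilobase of 1 transcript per gene. In control cells the Id sum was 57.3 in GM and 21.8 in DM3, and the E protein sum was 104 in GM and 174 in DM3. The ratio of Id to E protein RNA was 0.577 ± 0.312 (SD, n = 3) in control GM, ranging from 0.233 to 0.841, and 0.130 ± 0.0662 in control DM3, ranging from 0.0875 to 0.207. On this length the control libraries in DM3 were all below those in GM. In the spliced line the ratio was 1.42 ± 0.703 in GM, from 0.638 to 2.00, and 1.1 ± 0.307 in DM3, from 0.758 to 1.34. The spliced DM3 libraries were all above the control DM3 libraries, while in GM the lines overlapped. In the genomic line the ratio was 0.797 ± 0.629 in GM, from 0.320 to 1.51, and 0.354 ± 0.147 in DM3, from 0.257 to 0.522, all above control DM3. No test was made on the ratio, since it combines genes tested above. Dividing by the union of all annotated exons in place of 1 transcript gave 0.886, 2.06 and 1.13 in GM and 0.317, 2.10 and 0.861 in DM3 for the control, spliced and genomic lines, so the order of the lines by mean was kept within each medium. On the exon union the control media overlapped, with 0.495 in control DM3 replicate 1 and 0.418 in control GM replicate 2. The spliced line, whose mean was lower in DM3 than in GM on 1 transcript, had a slightly higher mean in DM3 on the exon union. The ratio thus depends on the length used for the change between media in control cells and in the spliced line. For Tcf4 the length was 4.25 kilobases in the transcript used and 27.4 kilobases in the exon union.

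**Figure D3:**
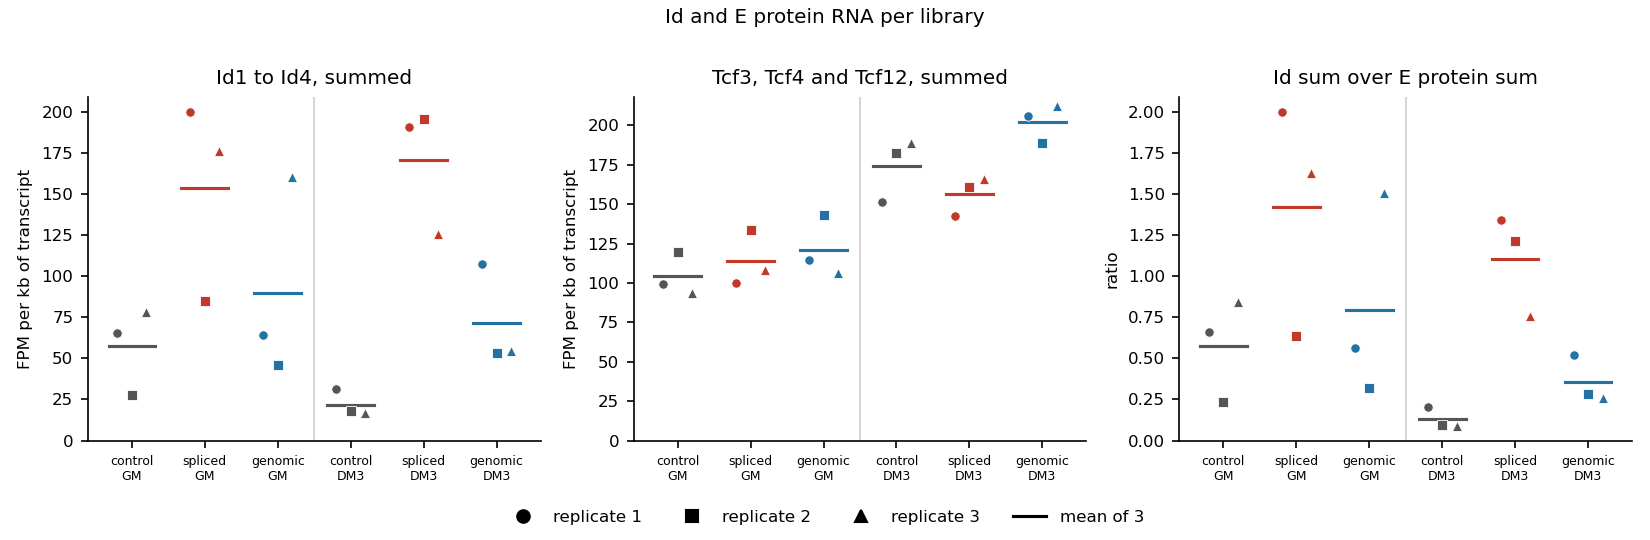
Summed FPM per kilobase of transcript of the Id genes, of the E protein genes, and their ratio (vertical axes, linear, starting at 0) in each library of the 6 groups; points are libraries and lines are means of 3. The ratio runs from 0.0875 to 0.207 in control DM3 and from 0.758 to 1.34 in spliced DM3.

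The composition of the Id sum also varied. In control DM3, Id1, Id2 and Id3 made up 43.5%, 5.08% and 51.4% of it on average, and in genomic DM3 39.6%, 5.80% and 54.6%. In spliced DM3 the shares were 14.6%, 19.3% and 66.1%. In GM the Id2 share was 23.4% in control cells, 28.0% in the spliced line and 20.2% in the genomic line. For the E proteins, Tcf4 made up 32.4% of the sum in control GM and 55.4% in control DM3, while Tcf3 went from 42.6% to 21.6%. These shares depend on the length as well. On the exon union Tcf4 went from 11.3% to 25.6% and Tcf3 from 66.5% to 46.6%, so Tcf3 had the larger share in control DM3 there. For the Id genes the exon union gave Id1, Id2 and Id3 shares of 52.9%, 2.43% and 44.7% in control DM3 and of 21.0%, 10.9% and 68.1% in spliced DM3.

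In GM the replicate numbers moved together across lines. Replicate 2 had the lowest Id1, Id2 and Id3 level and the highest Tcf4 level of its group in all 3 lines. Over the 9 GM libraries, deviations from the group mean on the log2 scale correlated between Id1 and Id3 (Pearson r = 0.976), Id1 and Id2 (0.926), and Id1 and Tcf4 (r = -0.947). These are descriptions, since the libraries of a number share what the number stands for, which the labels do not give. Over the 9 DM3 libraries the value was 0.856 for Id1 and Id3, 0.929 for Id1 and Id2 and -0.454 for Id1 and Tcf4. The part of this replicate pattern in the differences between lines was not tested beyond the fits with the replicate block given above.

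**Figure D4:**
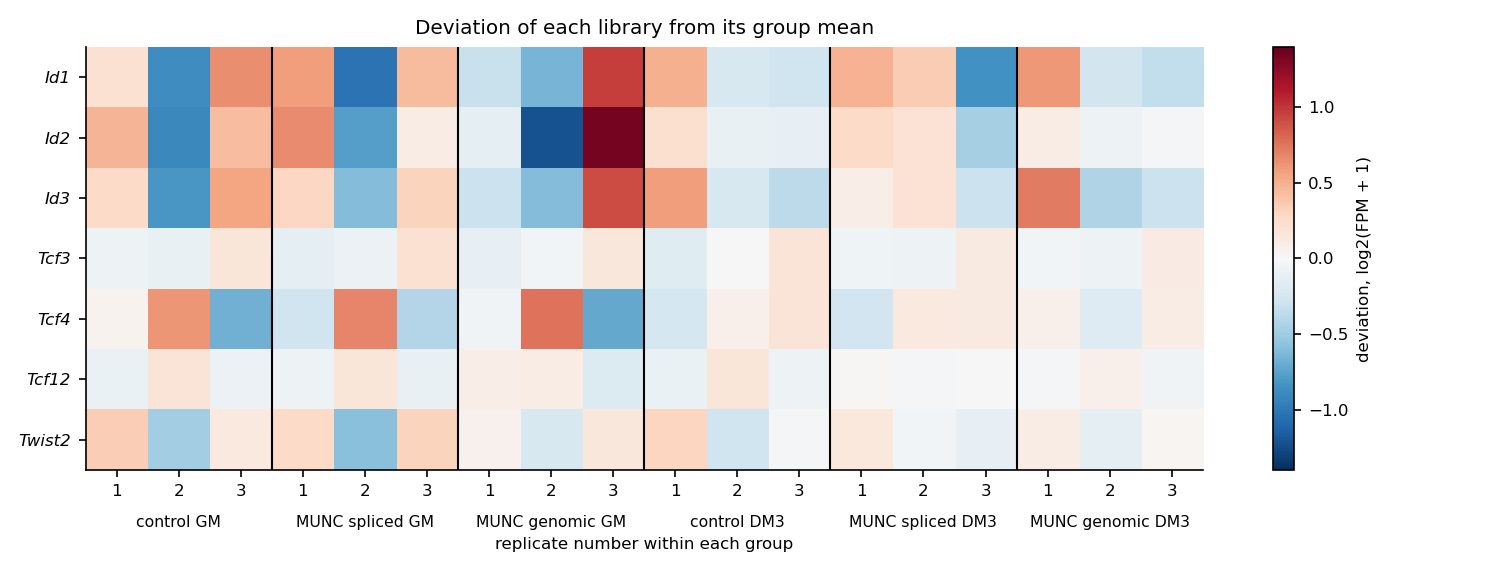
Heat map of each library's deviation from its group mean in log2(FPM + 1), for 7 genes (rows) and 18 libraries (columns, by group and replicate); the colour bar gives the scale. In the 3 GM groups replicate 2 is below the mean for Id1, Id2 and Id3 and above it for Tcf4.

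Across the 18 libraries, the genes whose log2(FPM + 1) was most like that of each member were named among 10377 genes with a mean of at least 5 FPM, by Pearson's r as a description. For Id1 they were Ncbp2 (0.831) and Cox19 (0.829), for Id2 1600002K03Rik (0.969) and Dgcr2 (0.959), and for Id3 Scfd2 (0.953) and Alg1 (0.905). For Tcf3 they were Polrmt (0.931) and Brpf1 (0.930), for Tcf4 Ypel3 (0.982) and Cyp2d22 (0.968), for Tcf12 Zfp266 (0.972) and 9930021J03Rik (0.968), and for Twist2 Hdgf (0.969) and C1qbp (0.968). Among the members, Tcf12 and Twist2 had r = -0.955, Tcf4 and Twist2 r = -0.880, and Id2 and Id3 r = 0.864 over the same libraries, which share media and lines.

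The MyoD family genes, whose products the members bind or oppose, differed strongly between lines. In control cells Myod1 averaged 0.0285 FPM in GM and 0.0993 FPM in DM3, at most 12 reads per library, against 12.4 ± 4.85 FPM in spliced GM, 28.6 ± 21.5 FPM in spliced DM3 and 18.4 ± 3.99 FPM in genomic DM3 (SD, n = 3). Myog, the gene of Myogenin, averaged 0.344 FPM in control DM3, 106 ± 104 FPM in spliced DM3 and 9.70 ± 4.40 FPM in genomic DM3. Spliced DM3 replicate 1 held 226 FPM of Myog together with 37.5 FPM of Id2 and 150 FPM of Id3. Myf5 was lower in the genomic line than in control cells in GM (log2 difference -1.39 ± 0.17) and in DM3 (-1.82 ± 0.17; limma, adjusted p = 1.21e-05 and 3e-07). Myf6 was not among the tested genes.

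Of 12 other listed inhibitors of MyoD or of muscle genes, 10 were tested. Between control DM3 and GM 4 rose and 1 fell, among them Bhlhe41 (log2 change 1.54) and Bhlhe40 (1.23), which encode repressors of the helix-loop-helix class, both higher in DM3. Heyl, a Notch target gene, was higher in both overexpressing lines in both media, with log2 differences from control cells of 2.86 and 2.09 for the spliced line in GM and DM3 and 1.94 and 3.52 for the genomic line, from a control mean of at most 0.0632 FPM. Snai2 was lower in the genomic line (-1.06 in GM and -1.44 in DM3). Against control cells, 3 of the 10 were higher and 1 lower in GM for either line, and 1 was higher and 2 lower in DM3 for either line, at limma's adjusted p of 0.05. Called shares of all tested genes were 35.5% (spliced) and 26.8% (genomic) in GM and 43.3% and 40.3% in DM3. Between control DM3 and GM the share was 58.2%. Of 16 other class II helix-loop-helix genes, only Scx, Tal1 and Tal2 reached the filter. Scx averaged 83.6 FPM in genomic GM and 41.5 FPM in control GM, and 89.3 and 49.7 FPM in DM3 (log2 differences 1.0 and 0.84, limma, adjusted p = 0.000104 and 0.000297).

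Of 25 listed genes of the BMP-Smad pathway, which is known to act upstream of Id genes, 20 were tested. In the spliced line 6 were higher and 6 lower than in control cells in GM, and 5 were higher and 5 lower in DM3. In the genomic line 3 were higher and 6 lower in GM, and 3 higher and 7 lower in DM3. Of all tested genes, limma called 35.5% and 43.3% for the spliced line in GM and DM3, and 26.8% and 40.3% for the genomic line. The ligand gene Bmp4 averaged 26.9 ± 13.6 FPM in spliced GM and 109 ± 23.1 FPM in spliced DM3 against 0.997 ± 0.368 and 1.70 ± 0.426 FPM in control cells (log2 differences 3.71 and 5.34, limma, adjusted p = 1.37e-08 and 1.63e-10), and in the genomic line it had at most 1 read in any library. Grem1, which encodes a secreted BMP antagonist, averaged 591 ± 101 FPM in GM and 674 ± 96.5 FPM in DM3 in control cells, and it was lower in both lines in both media, with log2 differences from -4.96 for genomic DM3 to -2.53 for genomic GM. Smad6, which encodes an inhibitory Smad and is itself a BMP target, was higher in the spliced line in GM (1.43) and DM3 (1.24) and in the genomic line in GM (1.05), and averaged 2.75 ± 0.353 FPM in genomic DM3 against 3.35 ± 0.690 FPM in control DM3. Bmpr1b, a BMP receptor gene, averaged 7.66 ± 2.07 FPM in genomic GM and 14.1 ± 1.18 FPM in genomic DM3, with control means of 0.124 and 0.120 FPM. Whether these levels bear on those of the Id genes was not tested.

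Id genes also respond to serum. Of 10 serum response genes, 1 rose and 2 fell between control GM and DM3, 5 rose and 1 fell in the spliced line, and 5 rose and 2 fell in the genomic line. Of all tested genes, 58.2%, 35.6% and 51.4% were called in these comparisons. The summed level of the serum response genes was 704 to 1166 FPM in control GM, 683 to 929 FPM in spliced GM and 717 to 1150 FPM in genomic GM. In DM3 it was 828 to 1566 FPM in control cells, 1645 to 2040 FPM in the spliced line and 1590 to 2428 FPM in the genomic line. Of the 6 fibroblast markers 5 were tested and Thy1 had at most 2 reads in any library. Against control cells 2 were higher in spliced GM, 1 in genomic GM, 1 in spliced DM3 and 2 in genomic DM3. Of all tested genes, 35.5%, 26.8%, 43.3% and 40.3% were called there in either direction. The markers summed to between 3987 and 6790 FPM in control GM, 7989 and 14869 FPM in spliced GM, 3279 and 9276 FPM in genomic GM, 6916 and 8202 FPM in control DM3, 13290 and 13821 FPM in spliced DM3 and 9759 and 11131 FPM in genomic DM3. The 6 adipocyte markers summed to between 7.01 and 11.2 FPM in control GM, 20.2 and 26.3 FPM in spliced GM and 18.7 and 27.2 FPM in genomic GM. In DM3 these sums were 8.05 to 10.5, 22.3 to 23.0 and 14.6 to 19.3 FPM. Of the 4 adipocyte markers tested, 2 were higher and 1 lower than in control cells for either line in either medium, while the defining markers Adipoq and Plin1 had at most 2 and 6 reads in any library. The 6 osteoblast markers summed to between 47.3 and 56.5 FPM in genomic DM3 and 73.4 and 107 FPM in control DM3, and Runx2, the 1 tested, was lower in genomic DM3 (log2 difference -0.84, limma, adjusted p = 0.000257). The part of serum response, cell cycle and marker levels in the differences of Id2 and Id3 was not tested.

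The authors' deposited table of control DM3 against control GM gave an adjusted p under 0.05 for 6 members, the 5 called here and Id1 (log2 change -1.0, adjusted p = 0.0101). The authors' deposited table for the spliced line in DM3 gave 3, adding Id1 (log2 1.45, adjusted p = 0.000221) to Id2 and Id3. The authors' deposited table for the spliced line in GM gave 4, the 3 called here and Msc (log2 7.88, adjusted p = 4.36e-07). The authors' deposited table for the genomic line in DM3 gave 5: Id1, Id2 (1.83, adjusted p = 4.67e-11), Id3, Tcf12 (0.28, adjusted p = 0.044) and Twist2 (-0.66, adjusted p = 0.0144). The authors' deposited table for the genomic line in GM gave 0, which is the count of the limma test here. The share of all genes under 0.05 in the deposited tables was not counted, so these counts stand without their own background. In the same comparisons limma here called from 26.8% (genomic against control GM) to 58.2% (control DM3 against GM) of all tested genes.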

How the data were processed

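Poly(A) RNA of 18 C2C12 libraries was measured by Illumina RNA-seq. STAR, HTSeq and DESeq2 and the build mm10 are named in the submitters' processing notes, without role or version. The deposited table holds FPM, a signal the authors made by dividing gene reads by a library size factor. Per the labels it is called FPKM, but whole reads were recovered from its steps for 100% of values within 0.05 reads. The authors' deposited tables of comparisons hold log2 fold changes and adjusted p-values, used only where named. Gene positions came from GENCODE M21 (GRCm38).

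Groups were taken from the sample titles. For 9 samples the source name differs from the title on myoblast or myotube. log2(FPM + 1) was fitted with limma 3.58.1 in R 4.3.3 over all 18 libraries, with 9 pairwise comparisons and 2 interactions, on the 13869 genes with at least 0.5 FPM in at least 3 libraries. A call is a Benjamini-Hochberg adjusted p under 0.05 over all of them. edgeR 4.0.16 (quasi-likelihood) and DESeq2 1.42.0 on the recovered reads, other pseudocounts, filters and scalings, the replicate block and fits without each library were alternatives. Only the limma step, for control DM3 against control GM, was tried on simulated counts with known changes. All 10 members are named or counted in every comparison. Outside them, the 2 genes most correlated with each member, the MyoD family and, of each other list, at most 4 called genes with the largest change in the comparison at hand could be named. Pax7, Thy1, Adipoq, Plin1, the antisense genes, and Smad6 and Bmp4 in the genomic line fall outside that rule and were named after their values were seen. Members and lists were chosen with earlier results of these data known. In every pair of replicates at least 98.2% of the tested genes differed in reads, so no library was counted as deposited more than once.

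Replicate numbers were checked for pairing by correlating deviations from group means over the tested genes. Every same-numbered pair exceeded 0.1 in 6 comparisons: control with spliced GM (0.495 to 0.711), control with genomic GM (0.494 to 0.726), spliced with genomic GM (0.456 to 0.727), control GM with control DM3 (0.203 to 0.411), control with spliced DM3 (0.171 to 0.340) and control with genomic DM3 (0.274 to 0.448). There the replicate numbers were taken to pair the samples.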

Additional observations from a re-analysis of the deposited data

Results flagged for a closer look

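The response of Id2 to differentiation medium differed between the spliced line and control cells, which a test of the difference itself picked out: the interaction was 2.35 on the log2(FPM + 1) scale (limma, adjusted p = 0.0377). In control cells Id2 fell by 2.66, and it had a log2 difference of -0.31 between the media in the spliced line. Of 11 alternatives that kept all libraries, 10 passed, among them edgeR (3.305, adjusted p = 0.0168) and DESeq2 (3.27, adjusted p = 0.00228) on the recovered reads. The exception was limma with no filter on low values, where the interaction had the same size and did not pass (adjusted p = 0.085). Without spliced DM3 replicate 1 it was 2.22 (adjusted p = 0.0778).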

How the results depend on the processing

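No difference that passed the main test changed direction under any alternative run. Among single genes 1345 fits kept their direction and side of the threshold, 81 newly passed, 41 no longer passed and 45 changed sign. Counts of called members stayed within 1.5 times of the main count in 172 fits and moved further in 44, and the cause was not tested. For spliced DM3 against spliced GM an absolute log2 change of at least 1 left 1 member. For genomic against control DM3, where 2 members passed, 4 passed with DESeq2 and with the compared groups alone and 1 with no filter. For spliced against genomic GM, where 0 passed, 1 passed with no filter (in limma and in edgeR), with equal sums and with quantile normalization. For spliced against genomic DM3 the compared groups alone gave 4 members in place of 2. For genomic against control GM DESeq2 gave 1. For the interaction of the spliced line DESeq2 gave 2 and no filter gave 0.

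All values that changed sign had missed the threshold in the main test, and those not from leaving out a library follow. Id1 in genomic against control GM was 0.030 with DESeq2, 0.00047 with edgeR and no filter and 0.0098 with equal sums. Tcf4 in spliced against genomic GM was 0.0022 with equal sums and 0.042 with quantile normalization. Tcf12 there was -0.034 with DESeq2, -0.037 with edgeR and -0.026 with edgeR and no filter, and its interaction for the genomic line was -0.020 with equal sums.

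With the replicate block, counts of called members were 2 for genomic against control GM, 6 for genomic against control DM3 and 3 for spliced against genomic GM. Besides the calls given with each gene, the block changed no other call where the numbers pair the samples. Where they do not, because the lowest same-number correlation was 0.0163 (spliced GM and DM3), 0.0531 (genomic GM and DM3) or 0.0939 (spliced and genomic DM3), the block gave 4, 5 and 4 members in place of 3, 4 and 2, and 3 and 0 for the interactions of the spliced and the genomic line. Of the 13869 tested genes, the block called 6616, 8344 and 7570 in these 3 comparisons, and 3868 and 2265 for the interactions. Every library correlated best with its own number in the genomic line and between the lines in DM3, and not in the spliced line. A block within the medium, chosen after seeing the data, gave 5 members for spliced and 3 for genomic against control GM. It gave 4 for spliced and 6 for genomic against control DM3, and 5 for spliced against genomic GM and 4 in DM3. Of the 13869 tested genes, these fits called 7753, 6512, 7658, 7218, 7788 and 7771 in that order. Over all genes, equal sums moved the split for spliced against control GM from 2530 higher and 2399 lower to 3240 and 1659, and for the spliced interaction from 1030 and 963 to 802 and 1134.

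Leaving out 1 library at a time gave 1 to 3 called members for spliced DM3 against spliced GM, 0 to 1 for genomic against control GM, 1 to 2 for genomic against control DM3, 0 to 1 for spliced against genomic GM and 0 to 3 for the spliced interaction. Log2 values whose sign turned ranged, between spliced DM3 and spliced GM, from -0.87 to 0.070 for Id1 and from -0.69 to 0.025 for Id2. Between genomic DM3 and genomic GM Id3 ranged from -0.67 to 0.15. In GM Tcf4 ranged from -0.28 to 0.37 for spliced against control, and Id1 from -0.54 to 0.27, Id2 from -0.37 to 0.91 and Tcf4 from -0.28 to 0.46 for genomic against control. For spliced against control DM3, Tcf3 ranged from -0.072 to 0.10 and Twist2 from -0.24 to 0.044. For spliced against genomic GM, Tcf4 ranged from -0.40 to 0.34 and Tcf12 from -0.090 to 0.060, and in DM3 Id1 from -0.41 to 0.26. For the spliced interaction Id1 ranged from -0.039 to 0.91 and Tcf3 from -0.18 to 0.0096. For the genomic interaction Tcf3 ranged from -0.16 to 0.011, Tcf4 from -0.25 to 0.49, Tcf12 from -0.081 to 0.10 and Twist2 from -0.35 to 0.068. Depth limits Id4 and Msc, whose levels rest on few reads.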
